A study of Arabidopsis thaliana with 12 samples.

Results

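Of 692 array features that stand for exactly 1 gene, 95 belonged to the set described here, the named genes that were at least doubled in Arabidopsis thaliana under PSII light with DCMU relative to PSI light. The set was defined on the deposited linear intensities. The mean of the 6 samples under PSII light with DCMU had to be at least 2 times the mean of the 6 samples under PSI light, their lowest value had to exceed the highest value under PSI light, and their mean had to reach 0.3. These numbers were met by 106 genes. Of these, 11 were left out because they belong to gene classes outside the definition: 6 genes of pentatricopeptide repeat proteins (AT3G13150, AT3G22150, AT5G15280, AT2G17670, AT3G22690 and AT2G46050), the photosystem I assembly gene AT1G22700, the NDH assembly gene CRR41, the kinesin gene AT4G14330, the fibrillin gene AT5G09820 and the dihydroxy-acid dehydratase gene AT3G23940 of amino acid synthesis. Their ratios of the group means were 8.42 in AT4G14330, 5.55 in AT1G22700, 3.64 in AT3G23940, 3.52 in CRR41 and 3.49 in AT5G09820. The pentatricopeptide repeat genes had 3.42 in AT3G22150, 3.25 in AT3G13150, 2.52 in AT5G15280, 2.38 in AT2G17670, 2.19 in AT3G22690 and 2.16 in AT2G46050. Another 5 genes whose class can be argued were kept: RIQ2 (listed as AT1G74730), Cpn60beta4, AT5G46390, AT2G30100 and AT3G59300. Because the groups' own values chose the set, the difference between the groups is given as a description and is not tested for the 95 genes.

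All 12 samples were total RNA of wild-type plants of the ecotype C24. The 6 samples of one group came from plants grown under light specific for photosystem I, without DCMU, and the 6 of the other from plants grown under light specific for photosystem II and treated with DCMU. No sample had only 1 of these 2 differences, so the light and DCMU cannot be told apart. Age, tissue and how many plants went into a sample are not stated in the labels. Of 8 genes typical of green leaf cells, 4 were measured by a named feature (PSAN, PSBY, PRK and SBPASE) and all had signal in every sample, and of 7 typical of root, flower or seed none was measured.

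Photosystem II takes electrons from water and passes them to the plastoquinone pool of the thylakoid membrane, from which photosystem I draws them by way of the cytochrome b6f complex. DCMU occupies the site on photosystem II where plastoquinone is reduced, so that electrons from water no longer reach the pool, while light absorbed mainly by photosystem I empties it. The redox state of this pool is known in plants as a signal that alters the transcription of plastid and nuclear genes and the distribution of light energy between both photosystems. Most chloroplast proteins are made from nuclear genes, imported, processed by proteases and folded by chaperonins.

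The intensities have an arbitrary scale and an unknown background, and levels of different features cannot be compared. Samples 1 and 2, 3 and 4, and 5 and 6 of a group resembled each other and were averaged to 1 replicate each, so n = 3 per group in all SDs. Nothing in the labels says that samples came from separate plants, so any spread given here may be technical. The number of arrays limits the precision, and in bulk RNA a smaller share of cells that express a gene and less RNA per cell cannot be told apart. Over all 3439 features, 478 or 13.9% met the numbers of the definition, against 15.3% of the features with 1 gene.

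The set was tied to the order of features on the array. Feature numbers repeat a pattern in runs of 12 bands of 24 consecutive numbers each, where a feature's place is its position within the run. The log2 changes of features exactly 1 run apart correlated at r = 0.39 over 2647 pairs of features, and those 6 bands apart at -0.16 over 2593 pairs, a description across features that share the same arrays. In bands 1 to 4 of a run the set held 3 of 198 named features (1.52%), namely GLX2-1, AT1G31220 and CML41, and in band 12 it held 0 of 50. In bands 5 to 11 it held 92 of 444, or 20.7%. The shares of features of any annotation that met the numbers were similar, 1.62% in bands 1 to 4, 22.0% in bands 5 to 11 and 3.50% in band 12. All features together had a median log2 change of -0.31, 0.38 and -0.37 in these bands. The part that place had in any single gene's ratio was not tested, and the change with place taken out is given beside part of the values below. That correction has a known fault: among 141 features at or under the floor of 0.0431 in all 12 samples, where no level could be measured, it made 86 pass the test. It also subtracts the median of the few features that share a place, the gene's own among them. Cpn60beta4, FBL17, AT3G06870 and AT1G32520 share place 148, for example. The correction can therefore remove part of a gene's own change.

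**Figure D1:**
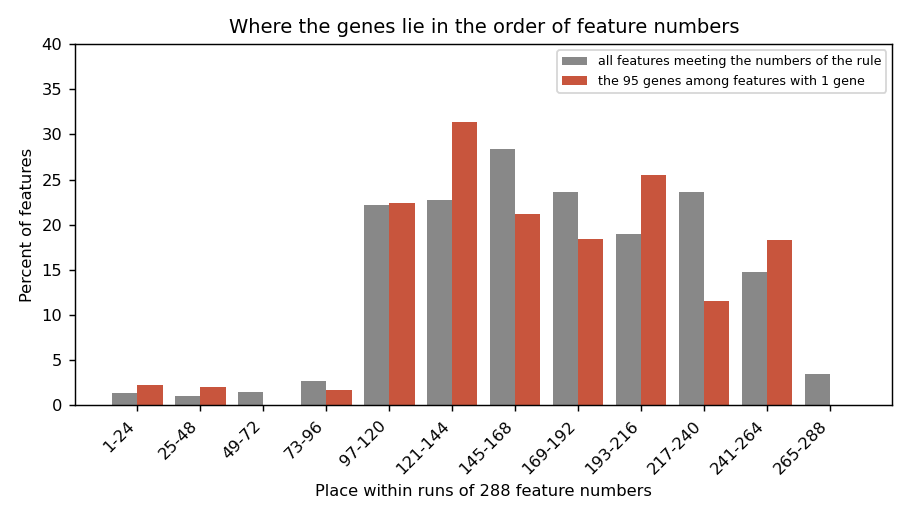
Percent of features in each of the 12 bands of 24 feature numbers that make up a run, with the place within the run on the horizontal axis. Grey bars show all features that met the numbers of the definition, and red bars show the 95 genes among features with 1 gene, which are nearly absent in bands 1 to 4 and in band 12.

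Across the 95 genes, the ratio of the means ran from 2.01 to 14.3 with a median of 3.10. It was at least 3 in 49 genes, at least 4 in 26 and at least 5 in 9. The groups overlapped in none of the 95, as the definition demands, where 27.2% of all features were higher without overlap. The median of the genes' means was 0.203 under PSI light and 0.657 under PSII light with DCMU, where 22 genes reached a mean of 1. In 44 genes even the lowest value under PSII light with DCMU was at least 2 times the highest under PSI light, and in 6 genes this gap was under 1.2 times. The definition itself demands a gap. These counts were not made over all features, so nothing is read from them. Under PSI light the median coefficient of variation over the 3 replicates was 28.1%, and under PSII light with DCMU it was 8.54%, so that the spread relative to the mean was wider under PSI light. It was also wider there in the other features with 1 gene, with medians of 16.0% and 9.10%. Taken by sample, the median of the 95 genes was between 0.165 and 0.237 in the samples under PSI light and between 0.653 and 0.674 in the others. In 7 genes at least 1 value lay at or under the floor of 0.0431: AT5G46390, AT3G25680, AT2G23160, AT5G65490, AT5G05330, AT5G13260 and AT1G44920.

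**Figure D2:**
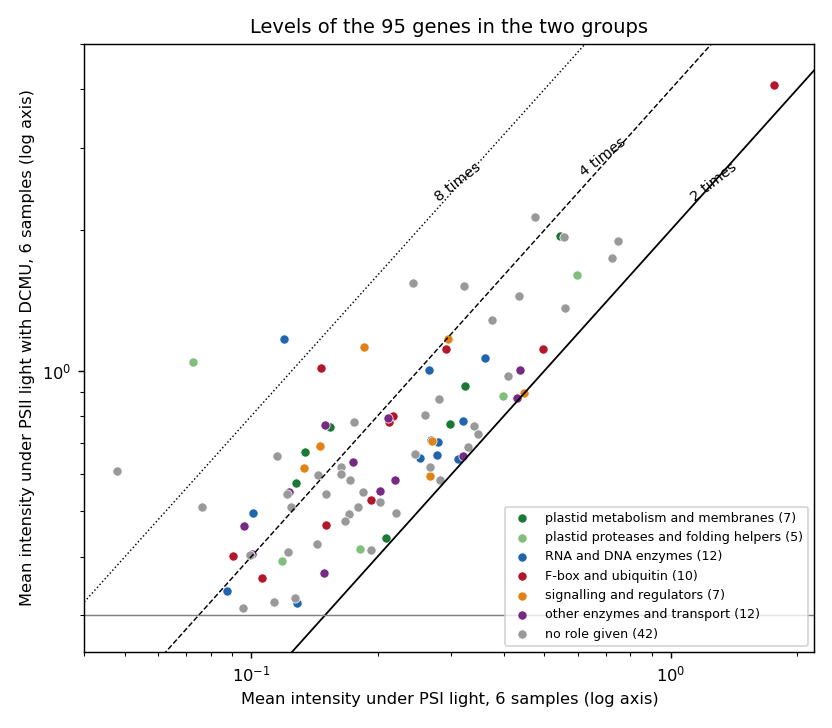
Mean intensity of each of the 95 genes under PSI light (horizontal, log axis) and under PSII light with DCMU (vertical, log axis), coloured by class with the number of genes in each. Sloped lines mark ratios of 2, 4 and 8 and the grey line marks the minimum of 0.3, and 3 genes lie above the ratio of 8.

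At the edge of the definition, CML41 (ratio 2.01), AT1G31220 (2.03) and AT4G24160 (2.05) lay just inside. AT1G24360 (1.97), PRA1.B6 (1.96) and AT5G63290 (1.95) lay just outside and met the other conditions. For the minimum under PSII light with DCMU, AT5G13260 (mean 0.311), AT5G53920 (0.318) and AT4G09970 (0.319) were the lowest inside, and AT5G04600 (0.292), AT3G27180 (0.285) and AT3G56130 (0.26) the highest outside. Overlap alone left out SEH1H, a nuclear pore gene, with a ratio of 2.47, and AT1G30700 with 2.

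In the fit of all 3439 features (limma, Benjamini-Hochberg at 0.05), 90 of the 95 genes passed as higher, where 26.4% of all features did. Nothing follows from this count, since the set was chosen on the same contrast. The other 5 were AT4G09970, AT5G06930, AT1G50750, AT2G31920 and AT3G09250. With the pair number as a block 84 passed, and the 6 that then lost the call were NADP-MDH, AT3G20490, SPPA, AT1G77730, AT5G59400 and RIQ2. The median log2 change was 1.73 in the set and 0.04 over all features.

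Plastid metabolism and membranes were represented by 7 genes. NADP-MDH (AT5G58330) encodes the chloroplast malate dehydrogenase that uses NADPH to make malate and so exports reducing power from the stroma, and is itself switched on by thioredoxin in the light. Its values ran from 0.243 to 1.08 (median 0.418) under PSI light and from 1.82 to 2.03 (median 1.97) under PSII light with DCMU, a ratio of 3.57. The values under PSII light with DCMU lay close together, while those under PSI light were widely spread and came nearest in replicate 2, where the ratio was 1.95 against 7.9 and 4.64 in replicates 1 and 3. LrgB (AT1G32080), also called PLGG1, carries glycolate out of the chloroplast and glycerate into it during photorespiration, and its means were 0.324 ± 0.151 (SD, n = 3) under PSI light and 0.927 ± 0.0866 under PSII light with DCMU. AT3G29185, also called BFA1, which assists assembly of the chloroplast ATP synthase, had means of 0.128 ± 0.0424 (SD, n = 3) under PSI light and 0.574 ± 0.0703 under PSII light with DCMU, a ratio of 4.49. The definition demands a gap between the groups. Between the nearest samples it was 1.66 times in LrgB and 2.16 times in AT3G29185, and its median in the set was 1.90 times.

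AT5G22620, of the phosphoglycerate mutase family, ran from 0.105 to 0.169 (median 0.135) under PSI light and from 0.587 to 0.735 (median 0.679) under PSII light with DCMU, with a ratio of 4.99. AT4G24930, which encodes a protein of the thylakoid lumen, ran from 0.103 to 0.242 (median 0.153) under PSI light and from 0.681 to 0.835 (median 0.757) under PSII light with DCMU, with a ratio of 4.91. The gap between the nearest samples, which the definition demands, was 3.48 times in AT5G22620 and 2.81 times in AT4G24930. AT3G58830, also called PGPP1, makes phosphatidylglycerol in plastids, a phospholipid of thylakoids, and its means were 0.298 ± 0.0322 (SD, n = 3) under PSI light and 0.77 ± 0.0773 under PSII light with DCMU, a ratio of 2.58. RIQ2 (AT1G74730), which affects the stacking of grana, had the lowest ratio of these 7 genes, 2.09, with values from 0.132 to 0.351 (median 0.207) under PSI light and from 0.361 to 0.5 (median 0.454) under PSII light with DCMU, so that the groups nearly met. With place taken out the log2 changes of the 7 genes were between 0.81 in LrgB and 1.75 in NADP-MDH, against 1.13 in RIQ2 to 2.36 in AT4G24930 as deposited.

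Plastid proteases and folding helpers numbered 5. AT5G46390 had the highest ratio of the whole set. It encodes a carboxyl-terminal processing peptidase, a relative of the lumenal enzyme that trims the D1 protein of photosystem II, and its values ran from 0.0425 to 0.103 (median 0.0746) under PSI light and from 0.966 to 1.14 (median 1.02) under PSII light with DCMU. Its means of 0.0727 ± 0.0114 (SD, n = 3) under PSI light and 1.04 ± 0.0814 under PSII light with DCMU gave a ratio of 14.3. The values under PSI light lay near the floor and 1 of them below it, so the size of the ratio depends on how dim values are read, whereas all values under PSII light with DCMU were near 1. The ratio was nearly the same in the 3 replicates, with 13.2, 15.8 and 14.3, and the log2 change was 3.91 as deposited and 2.95 with place taken out.

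SPPA (AT1G73990), a thylakoid-bound protease whose amount is known to follow the light, had means of 0.182 ± 0.0852 (SD, n = 3) under PSI light and 0.415 ± 0.0252 under PSII light with DCMU, a ratio of 2.28. AT3G02450, an FtsH-like ATPase, had a ratio of 2.21. AT1G74070, a cyclophilin, went from a mean of 0.597 to 1.6. Cyclophilins speed up the turning of proline bonds in protein folding. Cpn60beta4 (AT1G26230), a chaperonin subunit known to be needed to fold a subunit of the NDH complex, had means of 0.118 ± 0.0168 (SD, n = 3) under PSI light and 0.391 ± 0.0264 under PSII light with DCMU, a ratio of 3.31. Its log2 change was 1.75 as deposited and 0.39 with place taken out.

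Enzymes and binding proteins of RNA and DNA, with all methyltransferases grouped among them, numbered 12, and 5 of them belonged to methyltransferase families. AT5G53920 is of a family that methylates a protein, and no substrate is given here for AT3G28460 and AT5G64150. AT3G56330, a tRNA dimethylguanosine methyltransferase, had the third highest ratio of the set (9.78). Its values ran from 0.0781 to 0.158 (median 0.128) under PSI light and from 1.04 to 1.28 (median 1.18) under PSII light with DCMU. As the definition demands, all its samples under PSII light with DCMU lay above all those under PSI light. AT5G15390, of the SpoU type of RNA methyltransferases, ran from 0.276 to 0.49 (median 0.343) under PSI light and from 0.886 to 1.29 (median 1.03) under PSII light with DCMU. AT3G28460 ran from 0.224 to 0.337 (median 0.272) under PSI light and from 0.622 to 0.762 (median 0.712) under PSII light with DCMU. AT5G53920, of the family that methylates ribosomal protein L11, ran from 0.0614 to 0.214 (median 0.123) under PSI light and from 0.265 to 0.37 (median 0.323) under PSII light with DCMU, and AT5G64150 ran from 0.228 to 0.511 (median 0.25) under PSI light and from 0.521 to 0.888 (median 0.58) under PSII light with DCMU. In AT5G64150 the highest sample under PSI light almost reached the lowest under PSII light with DCMU, with a gap of 1.02 times, and in AT5G53920 the gap was 1.24 times, while in AT3G56330 the gap was 6.58 times. The ratios of the 4 smaller differences were 2.94 in AT5G15390, 2.52 in AT3G28460, 2.47 in AT5G53920 and 2.09 in AT5G64150.

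APTX (AT5G01310), a relative of aprataxin, which in humans repairs abortive ends of DNA ligation, ran from 0.0775 to 0.121 (median 0.1) under PSI light and from 0.388 to 0.564 (median 0.53) under PSII light with DCMU. Its ratio was 4.9. AT5G05330, an HMG-box protein of the kind that binds DNA, had 3.85 times its level under PSI light, but its ratio was 11.8 in replicate 3 and 3.09 and 2.68 in replicates 1 and 2. In replicate 3 both values under PSI light lay under the floor. AT4G09040, a protein with RNA recognition motifs, had a ratio of 3.79. The helicase gene AT2G47680 (2.65), the exonuclease gene AT3G15140 (2.58) and the KH-domain gene AT3G32940 (2.38) had smaller ratios. AT2G25870 encodes YBEY, an endoribonuclease that matures ribosomal RNA in chloroplasts, and is taken up below because 2 features measured it. The median log2 change of the 12 genes was 1.44, and 1.39 with place taken out.

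Genes of F-box proteins and of the ubiquitin pathway numbered 10, of which 8 encode F-box or F-box-associated proteins. F-box proteins choose the targets of a class of ubiquitin ligases and form one of the largest gene families of Arabidopsis. AT2G23160 ran from 0.0339 to 0.225 (median 0.175) under PSI light and from 0.955 to 1.08 (median 1) under PSII light with DCMU. Its ratio of 6.93 was uneven, with 19.3 in replicate 3 and 5.32 and 5.21 in the others. FBL17 (AT3G54650), which marks inhibitors of the cell cycle for breakdown in pollen development, ran from 0.066 to 0.118 (median 0.0928) under PSI light and from 0.369 to 0.444 (median 0.397) under PSII light with DCMU, a ratio of 4.43. AT4G05490 ran from 0.0529 to 0.176 (median 0.104) under PSI light and from 0.328 to 0.391 (median 0.367) under PSII light with DCMU, with a ratio of 3.38. The gap between the nearest samples, which the definition demands, was 4.25 times in AT2G23160, 3.12 times in FBL17 and 1.86 times in AT4G05490.

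AT2G32470 ran from 0.184 to 0.251 (median 0.216) under PSI light and from 0.682 to 0.913 (median 0.817) under PSII light with DCMU, and its ratio of 3.67 was steady over the replicates (3.84, 3.36 and 3.8). Kelch repeats mark 4 of the F-box proteins. AT1G51550 ran from 0.153 to 0.276 (median 0.219) under PSI light and from 0.635 to 0.864 (median 0.812) under PSII light with DCMU, a ratio of 3.65, and AT2G22050 ran from 0.105 to 0.188 (median 0.15) under PSI light and from 0.44 to 0.508 (median 0.46) under PSII light with DCMU, a ratio of 3.09. AT1G22040 ran from 0.287 to 0.752 (median 0.459) under PSI light and from 0.965 to 1.19 (median 1.12) under PSII light with DCMU, a ratio of 2.24. AT4G39760 had the highest mean of the whole set under PSII light with DCMU and ran from 1.61 to 1.9 (median 1.76) under PSI light and from 3.72 to 4.3 (median 4.2) under PSII light with DCMU. Its ratio was 2.32 and its log2 change 1.21, but with place taken out the change was -0.20, the 1 change among the 95 that turned below 0. The U-box ubiquitin ligase PUB40 (AT5G40140) had means of 0.291 ± 0.0805 (SD, n = 3) under PSI light and 1.11 ± 0.101 under PSII light with DCMU, and AT2G27630, of a family of ubiquitin hydrolases, had a ratio of 2.74. The median log2 change of the 10 genes was 1.87 as deposited and 0.77 with place taken out, and none of them lay in bands 1 to 4.

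Signalling and regulatory genes numbered 7. The protein kinase gene AT5G40030 ran from 0.0964 to 0.317 (median 0.177) under PSI light and from 0.957 to 1.29 (median 1.13) under PSII light with DCMU. Its ratio of 6.05 was 12.8 in replicate 1, 6.08 in replicate 2 and 3.53 in replicate 3, and all 3 were above 3. AT1G72540, another protein kinase gene, ran from 0.085 to 0.169 (median 0.149) under PSI light and from 0.564 to 0.705 (median 0.609) under PSII light with DCMU, a ratio of 4.62. ATATH8 (AT2G39190) belongs to the ABC1 kinases, several of which sit in plastid lipid droplets and act on quinone and tocopherol metabolism, and it ran from 0.0875 to 0.245 (median 0.105) under PSI light and from 0.645 to 0.746 (median 0.673) under PSII light with DCMU. Its ratio was 4.73, with 2.76 in replicate 2, where PSI light gave its highest values, and 6.2 and 8.43 in replicates 1 and 3.

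AT5G05400, a disease resistance gene of the nucleotide-binding type, had a ratio of 3.96 that was 2.1 in replicate 2 and 7.03 and 6.75 in replicates 1 and 3. CML41 (AT3G50770), a calmodulin-like calcium sensor that acts in immunity at plasmodesmata, ran from 0.274 to 0.552 (median 0.476) under PSI light and from 0.825 to 0.964 (median 0.906) under PSII light with DCMU and had the lowest ratio of the set. It was 1 of the 3 genes in bands 1 to 4, and its log2 change went from 1.05 to 1.53 with place taken out. SPL (AT4G27330), a nuclear regulator needed to form spore mother cells in flowers, had means of 0.27 ± 0.125 (SD, n = 3) under PSI light and 0.707 ± 0.0834 under PSII light with DCMU. The ERF transcription factor gene AT1G01250 had a ratio of 2.23.

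Other enzymes and transport genes numbered 12. AT5G02050, of the MAM33 family of mitochondrial matrix proteins, ran from 0.105 to 0.193 (median 0.164) under PSI light and from 0.73 to 0.791 (median 0.775) under PSII light with DCMU. The gap between its nearest samples was 3.79 times, and its ratio of 5.1 was 4.6, 5.11 and 5.69 in replicates 1 to 3. GLX2-1 (AT2G43430), a mitochondrial member of the glyoxalase II family, was at place 25, in band 2, where 3 of 281 features met the numbers of the definition. Its means were 0.212 ± 0.113 (SD, n = 3) under PSI light and 0.794 ± 0.076 under PSII light with DCMU. Its ratio was 3.75, and its log2 change was 2.11 as deposited and 2.44 with place taken out. AT1G31220, for a formyltransferase of purine synthesis, was at place 16 and ran from 0.335 to 0.525 (median 0.436) under PSI light and from 0.77 to 0.951 (median 0.874) under PSII light with DCMU, a ratio of 2.03. GLX2-1, AT1G31220 and CML41 were thus higher under PSII light with DCMU in bands where the median feature was lower.

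Of the alpha/beta hydrolases, AT5G19050 ran from 0.0652 to 0.143 (median 0.0926) under PSI light and from 0.411 to 0.536 (median 0.468) under PSII light with DCMU, a ratio of 4.84. AT4G24160, the relative of the human lipid droplet protein CGI-58, ran from 0.192 to 0.481 (median 0.308) under PSI light and from 0.579 to 0.717 (median 0.672) under PSII light with DCMU, a ratio of 2.05. The gap between the nearest samples was 2.88 times in AT5G19050 and 1.2 times in AT4G24160, which only just met the definition. The other genes of this class were AT5G63390 of the O-fucosyltransferase family (4.47), AT5G44000 of the glutathione S-transferase family (4.04), the COQ10-like gene AT4G17650 (3.65), the mutarotase-like gene AT5G66530 (2.72), the terpene synthase gene AT3G29410 (2.65), AT3G20920 for a Sec62 homologue of protein translocation (2.48) and MAMI (AT5G54110, 2.29), whose name stands for membrane-associated and mannitol-induced. The log2 change of AT3G20920 was 1.36 as deposited and 0.02 with place taken out.

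No role is given here for 42 genes, because the tables used hold none and no firm one is given from general knowledge. AT2G30100 and AT3G59300 among them possibly encode pentatricopeptide repeat proteins, a class that the definition leaves out, and were kept as doubtful. AT3G25680 ran from 0.0108 to 0.0844 (median 0.0418) under PSI light and from 0.562 to 0.673 (median 0.603) under PSII light with DCMU, with 3 of 12 values at or under the floor. Its ratio of 12.7 was the second highest of the set and ranged from 8.93 to 26.2 over the replicates. AT5G65490 ran from 0.0355 to 0.113 (median 0.0775) under PSI light and from 0.484 to 0.542 (median 0.512) under PSII light with DCMU, a ratio of 6.71, and AT2G30100 ran from 0.163 to 0.314 (median 0.244) under PSI light and from 1.45 to 1.67 (median 1.49) under PSII light with DCMU, a ratio of 6.33. AT1G75260 ran from 0.0946 to 0.154 (median 0.114) under PSI light and from 0.595 to 0.764 (median 0.65) under PSII light with DCMU, a ratio of 5.68. The definition bars overlap, and in all 4 genes the samples of the 2 groups were apart by more than the spread within either group.

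High means under PSII light with DCMU, without a role here, were those of AT3G06870, which ran from 0.343 to 0.701 (median 0.421) under PSI light and from 1.8 to 2.49 (median 2.08) under PSII light with DCMU, AT5G42680, which ran from 0.382 to 0.692 (median 0.551) under PSI light and from 1.83 to 2.05 (median 1.91) under PSII light with DCMU, and AT5G33390, which ran from 0.661 to 0.847 (median 0.743) under PSI light and from 1.59 to 2.2 (median 1.86) under PSII light with DCMU. Their ratios were 4.5, 3.48 and 2.52. AT5G42680 varied little, with 3.39, 3.44 and 3.61 in replicates 1 to 3, and its log2 change was 1.82 as deposited and 2.15 with place taken out. Among the lowest means of the set under PSII light with DCMU were those of AT5G13260, which ran from 0.0406 to 0.149 (median 0.0942) under PSI light and from 0.259 to 0.372 (median 0.316) under PSII light with DCMU, and AT4G09970, which ran from 0.0436 to 0.222 (median 0.075) under PSI light and from 0.267 to 0.358 (median 0.329) under PSII light with DCMU. In AT4G09970 the lowest sample of the higher group was 1.2 times the highest of the lower group.

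The others with a ratio of at least 4 were AT3G57440 (4.72), AT1G72020 (4.47), AT1G27610 (4.43), AT5G41960 (4.13), AT3G59300 (4.1) and AT1G32730 (4.05). Ratios between 3 and 4 were seen in AT1G18060, AT1G32220, AT1G63610, AT1G51080, AT5G65250, AT5G49800, AT3G61870, AT3G20490 and AT1G32520. Ratios between 2 and 3 were seen in AT1G44920, AT5G51670, AT3G17950, AT5G22340, AT2G26340, AT1G29700, AT1G73120, AT3G01060, AT5G06930, AT5G46560, AT1G50750, AT3G32930, AT1G77730, AT2G21720, AT5G59400, AT2G31920, AT5G56850 and AT3G09250. AT3G57440 combined a high ratio with little spread, with 5.31, 4.44 and 4.47 in replicates 1 to 3.

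**Figure D3:**
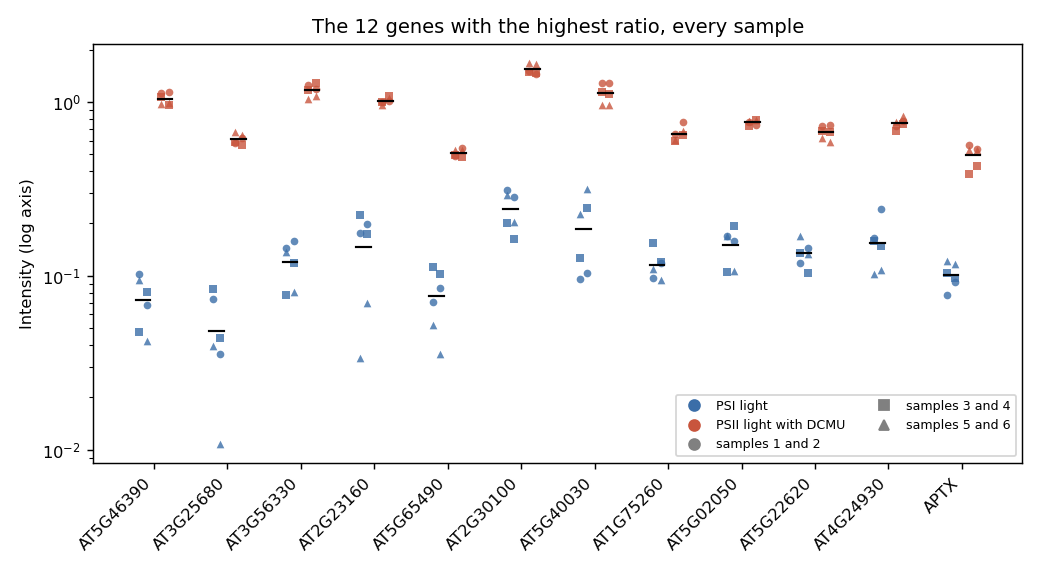
Intensity (log axis) of the 12 genes with the highest ratio in each of the 12 samples, with 1 marker shape per pair of samples and black lines at the group means. All samples under PSII light with DCMU lie above all samples under PSI light in each gene, as the definition demands. On this axis the samples under PSI light are the more spread.

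AT2G25870, the YBEY gene, was measured by 2 features that went opposite ways. Feature 2853, the one in the set, ran from 0.247 to 0.437 (median 0.323) under PSI light and from 0.666 to 0.869 (median 0.798) under PSII light with DCMU, a ratio of 2.44. Feature 2727 ran from 1.3 to 1.82 (median 1.61) under PSI light and from 0.813 to 1.24 (median 1.14) under PSII light with DCMU, a ratio of 0.682, and did not pass the test (log2 change -0.56 ± 0.19, limma adjusted p = 0.0608), though it did with the pair number as a block (limma adjusted p = 0.0188). With place taken out the changes were 1.46 and -0.18. No sequence of either probe was at hand, so which feature follows the transcript was not tested.

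Relatives of 10 members' families that are also measured by a named feature were looked up after the gene names had been read, and the lists are not complete. They are by construction features that did not meet the definition, so a difference from the set is built in. Of 19 such features outside the set, feature 2727 among them, 3 passed the test as higher, 2 as lower and 14 did not pass (limma, where 26.4% of all features passed as higher and 22% as lower). ATATH8 has a relative, the ABC1 kinase gene AT3G24190, that was also higher under PSII light with DCMU, by 0.82 ± 0.11 (log2, SE, adjusted p = 0.00407, 0.80 with place taken out). Cpn60beta3, the sister subunit of Cpn60beta4, was higher by 0.81 ± 0.06 (adjusted p = 0.000887), a change that was -0.19 with place taken out. The values of the MAM33 relative AT4G31930 ran from 1.08 to 1.57 (median 1.39) under PSI light and from 1.27 to 1.48 (median 1.41) under PSII light with DCMU, so that its groups overlapped. CML30, the relative of CML41, had a ratio of 0.745 (adjusted p = 0.0796), and the terpene synthase gene AT5G48110 one of 1.16 (adjusted p = 0.225). With place taken out the log2 changes were 0.34 in AT4G31930, 0.17 in CML30 and -0.09 in AT5G48110, and none of them passed.

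Of 7 other protein kinase genes, AT2G31800 was higher (1.48 ± 0.15, adjusted p = 0.00205, 1.60 with place taken out) but too dim for the set, AT2G23070, a plastid casein kinase subunit, was lower (-0.72 ± 0.12, adjusted p = 0.00855, -0.21 with place taken out), and 5 did not pass. Of those 5, AT1G69910, with a ratio of 0.789 (adjusted p = 0.0975), passed as lower with the pair number as a block (limma adjusted p = 0.0399). AT3G25840, also 1 of them, had a log2 change of -0.22 as deposited. With place taken out it passed as lower (-1.18, limma adjusted p = 0.000652). The SpoU methyltransferase relatives AT2G19870 and AT4G38020 had ratios of 1.3 and 0.665 and did not pass. With place taken out AT2G19870 passed as higher (log2 change 0.97, limma adjusted p = 0.00168) and AT4G38020 had -0.02. AT5G15390, the SpoU gene of the set, then had 0.48. Of the resistance genes of the nucleotide-binding type, AT3G04210 was lower (-0.90 ± 0.16, adjusted p = 0.0101, -0.46 with place taken out), AT1G72890 had a ratio of 0.95 and AT1G66090 was listed at 0 in all samples. The kelch F-box gene AT4G39570 had a ratio of 1.39 (adjusted p = 0.0676). With place taken out it passed as higher (log2 change 0.98, limma adjusted p = 0.00194). The kelch F-box genes of the set then had smaller changes, 0.73 in AT1G22040, 0.71 in AT1G51550, 0.56 in AT2G22050 and -0.20 in AT4G39760.

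**Figure D4:**
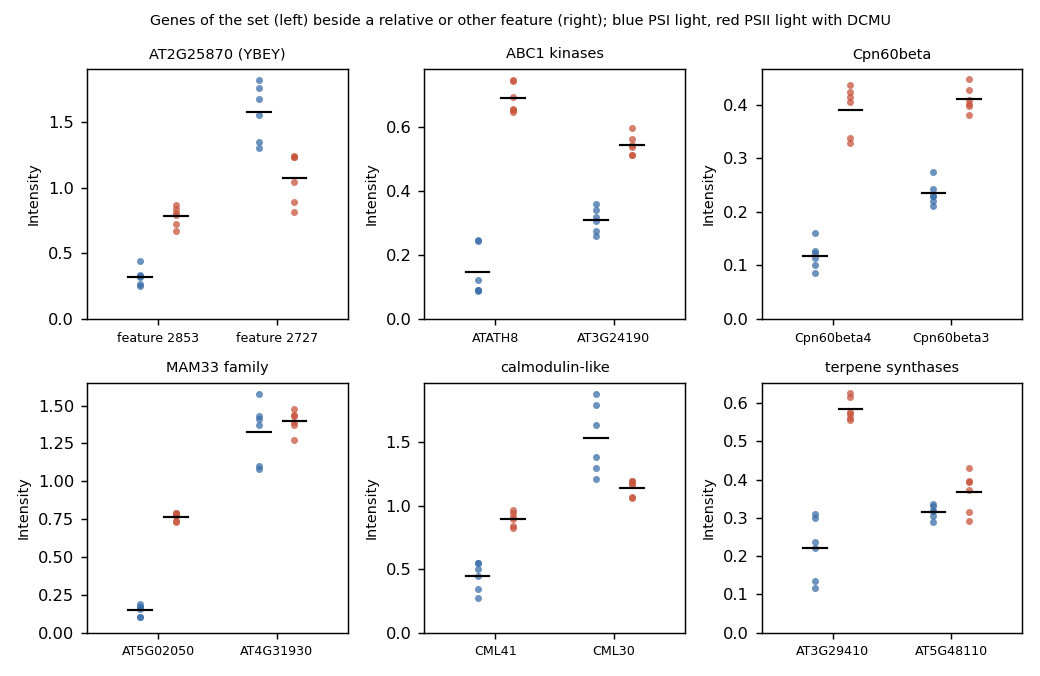
Intensity in the 6 samples of each group (blue, PSI light, and red, PSII light with DCMU, with black lines at the means) for 6 genes of the set on the left of each panel and a relative, or for AT2G25870 its other feature, on the right. Levels of different features are not comparable, and the 2 features of AT2G25870 differ in direction.

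With place taken out, 94 of the 95 genes kept a change above 0, 76 passed the test as higher (27.3% of all features did) and 45 had a change above 1. The median change was then 0.96, against 1.73 as deposited. The change was larger with place taken out in 11 genes, GLX2-1, AT5G42680, AT5G13260, AT2G26340, AT5G66530, AT5G33390, AT5G53920, AT2G25870, MAMI, AT1G31220 and CML41. It shrank to under 0.2 of its size in AT1G32520 (0.28), AT3G17950 (0.28), AT3G20920 (0.02), AT4G39760 (-0.20) and AT5G56850 (0.20). In a plainer comparison, the median log2 change of the 24 features nearest in feature number was above 0 around 89 of the 95 genes, with a median of 0.38. In 23 genes none of these 24 neighbours had a change as large, among them AT5G46390, AT3G25680, AT3G56330, AT2G23160, AT5G02050, APTX, ATATH8, GLX2-1 and NADP-MDH. Both measures use the contrast that chose the set and are descriptions. The counts of 89 and 23 were made around the 95 genes only, which were chosen for large changes. The same counts were not made for other features, so nothing is read from them.

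**Figure D5:**
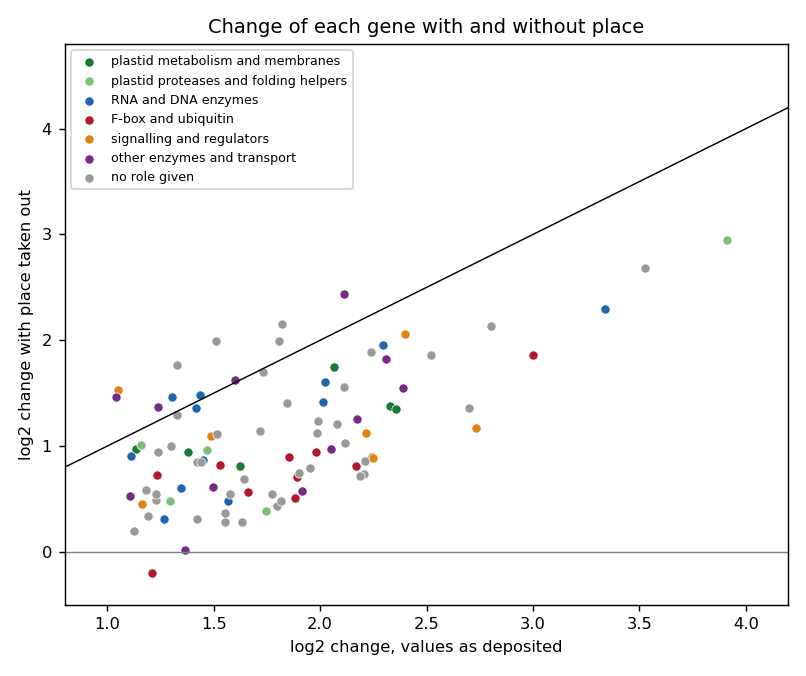
The log2 change of each of the 95 genes between the groups, as deposited (horizontal) and with the place of the feature taken out (vertical), coloured by class. The black line marks equal changes, 84 genes lie below it, and 1 gene, AT4G39760, lies below 0.

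The replicates carry the pair numbers 1 to 3. The definition bars overlap of the groups and so also limits how far its genes can spread between numbers, and the counts here are a description. In a fit with group and pair number, none of the 95 genes and none of the 3439 features differed between the numbers after adjustment (limma, F test), and at an unadjusted p under 0.05 they were 4 of 95, where 11.7% of all features were, and nothing is read from this. A count of 0 in so small a design does not show that the numbers had the same levels. The 4 were AT1G51080, AT3G61870, MAMI and AT5G64150. AT1G51080 ran from 0.25 to 0.459 (median 0.397) under PSI light and from 1.12 to 1.4 (median 1.3) under PSII light with DCMU. AT3G61870 ran from 0.382 to 0.541 (median 0.426) under PSI light and from 1.25 to 1.65 (median 1.42) under PSII light with DCMU. AT1G51080 was lowest in sample 6 of both groups, and AT3G61870 was highest in sample 2 of both. MAMI, highest in samples 1 and 2 of both groups, ran from 0.27 to 0.62 within the PSI group and from 0.699 to 1.26 within the other. AT5G64150 was highest in samples 3 and 4 of both groups, where its values were 0.392 and 0.511 under PSI light and 0.75 and 0.888 under PSII light with DCMU. Each number holds 2 replicates, 1 per group, and the labels do not say what it stands for.

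The definition used the same values, so the counts by replicate are a description. The value under PSI light was highest in replicate 2 in 54 of the 95 genes and lowest in replicate 3 in 52, and the ratio was lowest in replicate 2 in 60. Over the 3208 features above the floor in all samples, the value under PSI light was highest in replicate 2 in 39.2%. How often a replicate was lowest was not counted over these features. The ratio was highest in replicate 3 in 49 of the 95 genes (51.6%), against 47.2% of these features. It was highest in replicate 2 in 6 genes (6.3%), against 23.3%. The median ratio of the 95 genes was 3.50 in replicate 1, 2.46 in replicate 2 and 3.80 in replicate 3. In the other features with 1 gene these medians were 0.997, 0.919 and 1.02, also lowest in replicate 2. In 69 genes the ratio was at least 2 in every replicate, a count that the definition favours and that was not made over all features. Without PSI replicate 2 the definition gave 118 genes, and 94 of the 95 stayed in.

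By chromosome the set held 24, 12, 21, 8 and 30 genes of chromosomes 1 to 5, of 173, 124, 130, 120 and 143 named features matched to the reference table. Only AT3G32930 and AT3G32940 were direct neighbours in the genome, with no gene between them in the table of assembly TAIR10.1. Their means went from 0.266 to 0.621 and from 0.277 to 0.66, ratios of 2.33 and 2.38, and their features lie far apart in feature number, 1319 and 3384. AT1G51080 lies 1 gene from CRR41, which met the numbers as well (3.52). PRK, the Calvin cycle gene of phosphoribulokinase, lies 1 gene from LrgB and passed the test as higher, with a ratio of 1.78 (limma adjusted p = 0.0177). The nearest measured neighbours of AT5G53920, AT4G24930 and AT5G40030 were AT5G53930, AT4G24910 and AT5G40050, whose ratios were 1.11, 0.76 and 1.59, none of them past the test. Neither were PRA1.B3 beside AT5G05400 and AT1G50770 beside AT1G50750, with ratios of 0.88 and 1.19.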

How the data were processed

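Transcript levels of 12 samples were measured on an expression array. The authors deposited 1 intensity per feature and sample on a linear scale, and the array type, background correction and scaling are not stated in the labels. Column means lay within 3.25% and medians within 11.9% of their average. The means met the limit planned for keeping the values and the medians did not. Either was to be enough, so the values were kept as deposited. The medians differed by group, from 0.542 to 0.584 under PSI light and from 0.632 to 0.687 under PSII light with DCMU. This offset has the direction of the set and was left in the ratios. No column belonged to another sample. GEO's table of the platform, whose gene names may be dated, gave exactly 1 gene for 692 of 3439 features, and 690 matched the reference table of TAIR10.1. It holds no product names or sequences, so the planned family lists by product name, promoter motifs and protein features could not be made. Roles come from general knowledge, and a feature can detect related genes. The set and lists were chosen with earlier results of these data known.

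Values under the 1st percentile of the positive intensities (0.0431) were set to it and log2 was taken. Samples with neighbouring numbers correlated in their deviations from the group mean at 0.38 to 0.66, other samples of a group at -0.51 to -0.18, so each pair was averaged to 1 replicate. Replicates of the same number also correlated across the groups, at 0.29 to 0.36, so the numbers pair them, a pairing that comes from the data and titles. The fit used limma 3.58.1 (lmFit, then eBayes; R 4.3.3) without a block, two-sided, Benjamini-Hochberg over 3439 features at 0.05, with figures in Python 3.11.15 and matplotlib 3.10.9. SDs are over 3 replicates of linear means, ranges over 6 samples. An F test compared pair numbers. Place is the position within runs of 12 bands of 24 feature numbers, a period found in these data. It was taken out as the median of each place, per replicate in the fits and per sample where the definition was applied again. The fits were tested on simulated data. Alternatives were other scalings, floors, a pseudocount, a filter on dim features, the block, single samples, other limits of the definition, and leaving out each replicate. Every gene of the set is named. Values of all samples, as ranges, are given for the 12 highest ratios, the 5 brightest, the 3 lowest in ratio and in level, and families with 2 or more genes.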

Additional observations from a re-analysis of the deposited data

How the results depend on the processing

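The definition gave 95 genes, and from 61 to 118 under other scalings and with each replicate left out: 74 with each array scaled to its median (74 of the 95 among them), 65 after quantile normalization (60), 61 with place taken out (41) and 88 to 118 without 1 replicate. A ratio of 1.5 gave 156 genes, a ratio of 3 gave 49, and leaving out the 5 genes of doubtful class, an alternative chosen after seeing the data, gave 90. The median log2 change of the 95, 1.73, was 0.96 with place taken out, 1.18 with a pseudocount of 0.139, 1.39 after quantile normalization and 1.62 to 1.91 without 1 replicate. The fit passed 1667 features, 1656 with the replicate block, and 1138 to 1685 without 1 replicate. The set's count of 90 was 84 with the replicate block, 83 after quantile normalization, 76 with place taken out and 65 to 90 without 1 replicate. The share of higher calls over all features was 54.5%, but 39.6% with each array scaled to its median, 41.5% after quantile normalization and 60.7% with place taken out. AT4G39760 turned from 1.21 to -0.20 with place taken out, and no other gene changed direction in the alternatives run. The pair numbers gave 0 calls in every setting tried (limma; 403 features at an unadjusted p under 0.05). Values near the floor and the unknown background limit the ratios of dim genes, and the cause of these shifts was not tested.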

Other observations

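Features that stand for several genes or none met the numbers of the definition as well. They were 114 of 870 features with several genes (13.1%) and 258 of 1877 with none (13.7%), against 106 of 692 with 1 gene (15.3%). These features are not named here. Median gene length in the reference table was 2279 bases in the set and 2114 in the other named features.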
